A study of Rattus norvegicus with 16 samples.

Results

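The genes described here are 32 genes of cell division and DNA replication and were chosen by name. Each was looked up by its symbol in the 2 deposited expression tables of the study, and of several rows with 1 symbol the best expressed was used. Of the 32 genes, 30 had a row in the CA1 table, among 16405 different symbols, and 29 in the table of white blood cells (WBC), among 16395. The study compared poly-A RNA from male Sprague-Dawley rats of 200 to 240 g at 1 week after traumatic brain injury by fluid percussion (TBI) or after sham surgery. The tissues were white blood cells isolated from blood and hippocampal region CA1, whose main cells are pyramidal neurons. The groups were WBC TBI, WBC sham, CA1 TBI and CA1 sham, with 4 libraries each and 16 in all, and every rat, sham or injured, had surgery and a learning test before the tissue was taken. The labels number the libraries of a group without naming rats, so the p-values measure the spread between these samples.

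Dividing cells copy their DNA once and then part the copies in mitosis. The proteins for copying, such as the MCM helicase, the clamp PCNA and the enzymes that supply nucleotides, are made before and during S phase, and E2F factors switch on many of their genes. The proteins of mitosis, such as the cyclin B kinase, the Aurora kinases and the spindle motors, come later, and many of their genes carry a CCAAT box, bound by NF-Y, and a CHR element, bound by the DREAM and MuvB complexes. In the adult brain most neurons no longer divide. Blood leukocytes are mostly at rest, while young red cells that have just lost their nucleus can still carry transcripts made in dividing precursors.

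Promoter sequences are shown because the genes of the 2 roles, replication and mitosis, are known for different promoter elements. RefSeq promoters of the rat (build GRCr8, 250 bases before to 50 after the start site) were at hand for 25 of the 32 genes. Each motif was searched on both strands. The NF-Y box was CCAAT, and the CHR element was TTTGAA. An E2F type match was the string TTGGCGC, the string TTCGCGC or the string TTCCCGC. Among 17 promoters of mitosis genes, 14 held CCAAT (82.4%), 12 held TTTGAA (70.6%) and 2 held an E2F type match (11.8%). Among 8 promoters of replication genes these numbers were 6 (75%), 1 (12.5%) and 7 (87.5%). Over all 33469 promoters in the RefSeq table the shares were 37.5% for CCAAT, 18.3% for TTTGAA and 7.52% for the E2F type. CCAAT and TTTGAA stood together in 11 of the 17 mitosis promoters (64.7%), in 0 of the 8 replication promoters and in 7.41% of all promoters. A match of letters is not a shown binding site.

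Promoters of 4 genes follow, 5′ to 3′ along the gene, with every match in capitals; adjoining or overlapping matches run together. Mki67, which codes for the Ki-67 protein that coats mitotic chromosomes, held 4 CCAAT, 2 TTTGAA and 1 E2F type match. Birc5, which codes for survivin of the chromosomal passenger complex, held 1 CCAAT and 1 TTTGAA, and TTTGAA ended 3 bases before the start site. Tyms, thymidylate synthase, held 1 E2F type match and neither of the others. Mcm6, a subunit of the replicative helicase, held 2 CCAAT and 5 E2F type matches, of which 4 overlap in pairs on opposite strands.
Mki67 (chr1:199952544-199952843, minus strand): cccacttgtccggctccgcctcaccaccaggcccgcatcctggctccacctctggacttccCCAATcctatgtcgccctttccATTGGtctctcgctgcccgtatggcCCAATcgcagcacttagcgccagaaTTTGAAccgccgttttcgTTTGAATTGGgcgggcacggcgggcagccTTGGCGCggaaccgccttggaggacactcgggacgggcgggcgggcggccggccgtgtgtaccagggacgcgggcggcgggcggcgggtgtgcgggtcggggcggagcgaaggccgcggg
Birc5 (chr10:103571896-103572195, plus strand): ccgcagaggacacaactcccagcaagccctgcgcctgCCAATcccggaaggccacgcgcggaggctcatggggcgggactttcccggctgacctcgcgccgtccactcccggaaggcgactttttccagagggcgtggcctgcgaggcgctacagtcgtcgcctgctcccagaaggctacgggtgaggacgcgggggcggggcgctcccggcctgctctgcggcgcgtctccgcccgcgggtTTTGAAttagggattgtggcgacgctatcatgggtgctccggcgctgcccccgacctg
Tyms (chr9:120776034-120776333, minus strand): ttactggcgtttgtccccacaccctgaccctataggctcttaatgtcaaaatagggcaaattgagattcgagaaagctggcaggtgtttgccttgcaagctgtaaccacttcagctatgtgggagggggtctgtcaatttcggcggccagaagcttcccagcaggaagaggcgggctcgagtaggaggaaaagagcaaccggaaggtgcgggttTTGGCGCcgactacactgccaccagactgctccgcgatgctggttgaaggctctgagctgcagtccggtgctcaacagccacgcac
Mcm6 (chr13:42404303-42404602, minus strand): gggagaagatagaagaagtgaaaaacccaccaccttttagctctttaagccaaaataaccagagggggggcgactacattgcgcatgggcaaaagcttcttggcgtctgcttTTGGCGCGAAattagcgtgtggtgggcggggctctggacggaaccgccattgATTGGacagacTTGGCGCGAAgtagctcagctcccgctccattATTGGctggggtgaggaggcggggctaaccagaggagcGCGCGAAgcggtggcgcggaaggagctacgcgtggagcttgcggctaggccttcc

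**Figure D1:**
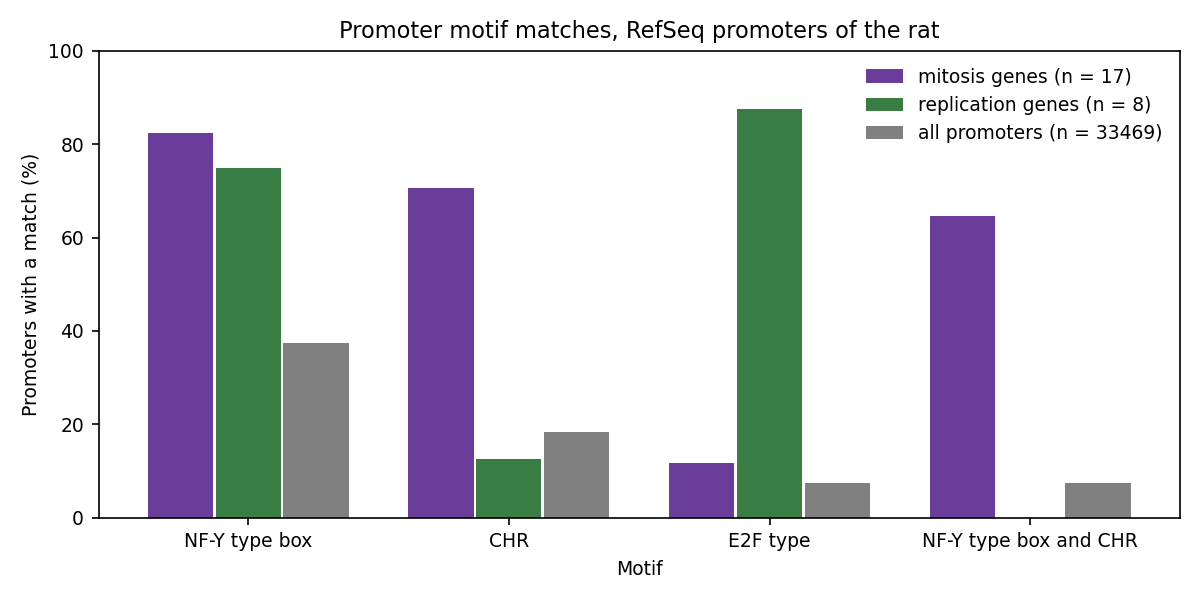
The bars give the share of promoters, in percent, with a match to each motif among mitosis genes, replication genes and all RefSeq promoters. The CHR element was matched in 70.6% of mitosis and 12.5% of replication promoters, and the E2F type in 11.8% of mitosis and 87.5% of replication promoters, with all promoters at 18.3% and 7.52%.

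The values are FPKM, fragments scaled by the authors to transcript length and library size, so levels of different genes within a tissue can be set side by side. How the libraries were scaled to each other is not known. The number of fragments behind a library is unknown. FPKM summed over all rows ran from 482300 to 832700 in WBC and from 1727000 to 3521000 in CA1. Across rows, which are not independent replicates, Pearson's r of log2 values between any libraries of a tissue lay at 0.910 to 0.968 in WBC and at 0.968 to 0.981 in CA1. T cell and pyramidal markers followed the labelled tissues. Summed T cell markers stood at 874 to 1345 FPKM in TBI and 896 to 1214 FPKM in sham WBC libraries. Erythroid and reticulocyte sums were higher there, at 6028 to 14415 FPKM in TBI and 14789 to 23361 FPKM in sham WBC libraries. Platelet sums were also higher, at 2410 to 7182 FPKM in TBI and 7706 to 10483 FPKM in sham WBC libraries. Summed CA1 pyramidal markers stood at 2388 to 2674 FPKM in TBI and 2322 to 3199 FPKM in sham CA1 libraries. The same pyramidal sum stayed at 6.88 to 13.1 FPKM in TBI and 5.32 to 9.85 FPKM in sham WBC libraries, and the T cell sum at 12.9 to 15.0 FPKM in TBI and 11.8 to 20.3 FPKM in sham CA1 libraries. Il7r of the T cell list was at 0 in all libraries of both tissues. Choroid plexus markers, from tissue beside the hippocampus, varied widely, with sums of 179 to 2735 FPKM in TBI and 18.4 to 1309 FPKM in sham CA1 libraries.

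Differences are TBI minus sham on log2(FPKM + 0.5), tested by limma over all rows that averaged at least 1 FPKM in the tissue, with n = 4 libraries per group and a threshold of 0.05 on the adjusted p. Of the 32 genes, 19 passed that minimum in WBC and 12 in CA1. In WBC 10 others had a row below it and 3 had no row of their own, and in CA1 these numbers were 18 and 2. Bub1b, a spindle checkpoint kinase, had no row in either table, and Bub1, its partner at the kinetochore, is not reported here. In WBC the helicase subunit Mcm7 appeared only in a row shared with Mir25. The shared Mcm7 row stood at 23.4, 81.9, 23.1 and 26.8 FPKM in TBI libraries 1 to 4, against 24.7, 22.3, 26 and 29.4 FPKM in sham libraries 1 to 4, so TBI 2 stood far above the others.

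TBI was compared with sham first in white blood cells. No gene of the 19 tested passed (limma adjusted p = 0.127 to 0.991), in a tissue where 0% of 13413 rows passed. Of the tested mitosis genes 10 of 11 were lower in TBI, with log2 differences of -1.60 for Tpx2 to 0.0052 for Aurkb and a median of -0.45. Of 8 replication genes 5 were lower, with a median of -0.074, and all tested rows had a median of -0.0031, with 50.4% of rows lower. At an unadjusted p under 0.05 limma gave 6 of the 19 genes lower, where 12.5% of all rows were, and 1 higher, where 7.82% were. In 3 of the 19 all TBI libraries lay below all sham libraries, which held for 8.63% of all rows. The reverse held for 0 of the 19 and for 5.61% of all rows. Together 7 genes were at an unadjusted p under 0.05, against 20.3% of all rows, and this count became 3 without TBI 1, 11 without TBI 2 and 4 without sham 4.

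Nucleotide supply held the smallest p. Tyms, which makes the thymidine nucleotide for DNA, stood at 2.19, 5.59, 4.02 and 3.31 FPKM in TBI libraries 1 to 4, against 7.79, 8.69, 8.87 and 10.8 FPKM in sham libraries 1 to 4. The Tyms log2 difference was -1.21 ± 0.23 SE (limma adjusted p = 0.127). Every TBI library lay below every sham library, with TBI 1 lowest. Rrm1, the large subunit of ribonucleotide reductase, stood at 16.3, 15.3, 16.2 and 12.7 FPKM in TBI libraries 1 to 4, against 16.6, 18.3, 22.9 and 22.0 FPKM in sham libraries 1 to 4. The Rrm1 log2 difference was -0.39 ± 0.13 SE (limma adjusted p = 0.161). Its groups did not overlap either, although TBI 1 and TBI 3 lay just under sham 1. Rrm2, the small subunit made in S phase, was near the bottom of the scale at 0.0577, 0.241, 0.121 and 0.0787 FPKM in TBI libraries 1 to 4, against 0.0719, 0.269, 0.177 and 0.0965 FPKM in sham libraries 1 to 4. The Rrm2 log2 difference was -0.064 ± 0.12 SE (limma adjusted p = 0.833 without the minimum), and its groups overlapped.

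The clamp Pcna and the helicase subunit Mcm3 had the highest means of the 29 genes in blood, and no gene of the helicase or clamp passed. Pcna, the ring that holds the DNA polymerase on its template, stood at 37.2, 36.7, 39.4 and 36.9 FPKM in TBI libraries 1 to 4, against 40.1, 32.9, 43.9 and 43.2 FPKM in sham libraries 1 to 4. The Pcna log2 difference was -0.082 ± 0.10 SE (limma adjusted p = 0.689). Mcm2 stood at 9.47, 9.01, 10.9 and 11.7 FPKM in TBI libraries 1 to 4, against 8.70, 9.82, 11.3 and 9.66 FPKM in sham libraries 1 to 4. The Mcm2 log2 difference was 0.054 ± 0.11 SE (limma adjusted p = 0.830). Mcm6 stood at 9.31, 9.17, 9.38 and 10.1 FPKM in TBI libraries 1 to 4, against 9.94, 9.31, 10.5 and 10.2 FPKM in sham libraries 1 to 4. The Mcm6 log2 difference was -0.070 ± 0.070 SE (limma adjusted p = 0.620). The groups overlapped in all 3 genes. Mcm3, the highest of the 29 by its mean over the 8 libraries, averaged 39.0 ± 5.05 FPKM in TBI and 41.1 ± 3.94 FPKM in sham libraries (log2 difference -0.078 ± 0.11 SE, limma adjusted p = 0.744). Mcm5 stood at 5.42, 6.44, 5.12 and 4.07 FPKM in TBI libraries 1 to 4, against 5.26, 4.82, 4.63 and 5.03 FPKM in sham libraries 1 to 4. The Mcm5 log2 difference was 0.070 ± 0.13 SE (limma adjusted p = 0.810), and TBI 2 and TBI 4 were its extremes. Mcm4 went the other way from most genes, at 8.43, 8.21, 8.45 and 7.05 FPKM in TBI libraries 1 to 4, against 6.93, 7.08, 5.57 and 6.54 FPKM in sham libraries 1 to 4. The Mcm4 log2 difference was 0.28 ± 0.10 SE (limma adjusted p = 0.179). In Mcm4 TBI 1, 2 and 3 lay above all sham libraries, while TBI 4 lay just under sham 2.

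Proteins of chromosome structure and the passenger complex came next. Mki67, the usual marker of cycling cells, stood at 2.01, 8.86, 6.81 and 3.18 FPKM in TBI libraries 1 to 4, against 7.71, 19.3, 15.9 and 13.6 FPKM in sham libraries 1 to 4. The Mki67 log2 difference was -1.47 ± 0.44 SE (limma adjusted p = 0.146). TBI 1 and TBI 4 were lowest, and TBI 2 lay above the lowest sham library. Birc5 stood at 7.55, 12.8, 7.23 and 6.71 FPKM in TBI libraries 1 to 4, against 9.14, 13.8, 12.7 and 12.6 FPKM in sham libraries 1 to 4. The Birc5 log2 difference was -0.50 ± 0.21 SE (limma adjusted p = 0.232). Its partner Cdca8, borealin, stood at 4.10, 5.74, 5.30 and 3.63 FPKM in TBI libraries 1 to 4, against 5.72, 7.25, 5.09 and 8.43 FPKM in sham libraries 1 to 4. The Cdca8 log2 difference was -0.45 ± 0.19 SE (limma adjusted p = 0.229). TBI 1 and TBI 4 lay below all sham libraries in both genes, TBI 3 in Birc5 as well, and TBI 2 lay inside the sham range in both. Top2a, which untangles DNA before chromosomes part, stood at 0.237, 0.953, 0.460 and 0.650 FPKM in TBI libraries 1 to 4, against 0.419, 0.593, 0.476 and 0.447 FPKM in sham libraries 1 to 4. The Top2a log2 difference was 0.087 ± 0.20 SE (limma adjusted p = 0.865 without the minimum), with TBI 2 highest and TBI 1 lowest of all 8 libraries. The kinetochore protein gene Cenpf averaged 0.381 ± 0.204 FPKM in TBI and 0.903 ± 0.328 FPKM in sham libraries, below the minimum, and its groups did not overlap (log2 difference -0.67 ± 0.23 SE, limma adjusted p = 0.214 without the minimum). Without the minimum, TBI lay below sham without overlap in 4 of the 29 genes and in 6.04% of all rows, and above it in 0 of the 29 and 4.96% of all rows. Of the 29 genes 21 were then lower, against 44.8% of all rows, and 9 were at an unadjusted p under 0.05 (limma), against 16.4%.

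Among spindle genes Tpx2, which activates Aurora A and nucleates spindle microtubules, stood at 4.57, 14.6, 11 and 1.47 FPKM in TBI libraries 1 to 4, against 14.6, 26.2, 14.9 and 22.8 FPKM in sham libraries 1 to 4. The Tpx2 log2 difference was -1.60 ± 0.59 SE (limma adjusted p = 0.188). The groups did not overlap by a narrow gap between TBI 2 and sham 1, and the difference was -1.03 without TBI 4. Aurka, the spindle pole kinase that Tpx2 activates, stood at 2.86, 3.38, 3.23 and 2.58 FPKM in TBI libraries 1 to 4, against 3.97, 4.11, 3.24 and 3.47 FPKM in sham libraries 1 to 4. The Aurka log2 difference was -0.26 ± 0.12 SE (limma adjusted p = 0.265), with overlap. Nusap1, a microtubule binding protein, averaged 0.645 ± 0.407 FPKM in TBI and 1.22 ± 0.335 FPKM in sham libraries (log2 difference -0.63 ± 0.27 SE, limma adjusted p = 0.30 without the minimum). Prc1, which bundles midzone microtubules, averaged 1.70 ± 0.389 FPKM in TBI and 2.14 ± 0.136 FPKM in sham libraries (log2 difference -0.28 ± 0.15 SE, limma adjusted p = 0.327). The motors Kif11 and Kif20a averaged 0.903 and 0.373 FPKM in TBI, against 0.849 and 0.444 FPKM in sham libraries, all under the minimum.

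The kinase at the centre of mitosis and its cyclins gave no call. Cdk1 stood at 0.539, 0.993, 0.282 and 1.15 FPKM in TBI libraries 1 to 4, against 1.05, 0.311, 0.738 and 0.525 FPKM in sham libraries 1 to 4. The Cdk1 log2 difference was 0.082 ± 0.29 SE (limma adjusted p = 0.913 without the minimum), with full overlap. Ccnb1, cyclin B1, stood at 2.05, 3.06, 2.79 and 1.92 FPKM in TBI libraries 1 to 4, against 2.59, 3.45, 2.46 and 3.24 FPKM in sham libraries 1 to 4. The Ccnb1 log2 difference was -0.23 ± 0.17 SE (limma adjusted p = 0.486), where TBI 1 and TBI 4 were lowest. Ccnb2 averaged 1.32 ± 0.471 FPKM in TBI and 1.68 ± 0.247 FPKM in sham libraries (log2 difference -0.29 ± 0.20 SE, limma adjusted p = 0.444), and the S phase cyclin gene Ccna2 averaged 0.243 ± 0.137 FPKM in TBI and 0.293 ± 0.133 FPKM in sham libraries, under the minimum. Aurkb, the passenger complex kinase, averaged 3.74 ± 1.16 FPKM in TBI and 3.65 ± 0.688 FPKM in sham libraries (log2 difference 0.0052 ± 0.21 SE, limma adjusted p = 0.991), and Plk1 and Pbk, other mitotic kinases, stayed under the minimum on average, Pbk being listed at 0 in TBI 3. The anaphase-promoting complex takes its ubiquitin from Ube2c and its substrates from Cdc20. Ube2c averaged 22.3 ± 11.7 FPKM in TBI and 38.3 ± 21.3 FPKM in sham libraries (log2 difference -0.83 ± 0.59 SE, limma adjusted p = 0.471) and varied within both groups, from 5.84 to 31.9 FPKM in TBI and from 17.1 to 62.0 FPKM in sham libraries. Cdc20 averaged 3.6 ± 1.5 FPKM in TBI and 5.28 ± 1.85 FPKM in sham libraries (log2 difference -0.53 ± 0.32 SE, limma adjusted p = 0.384).

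**Figure D2:**
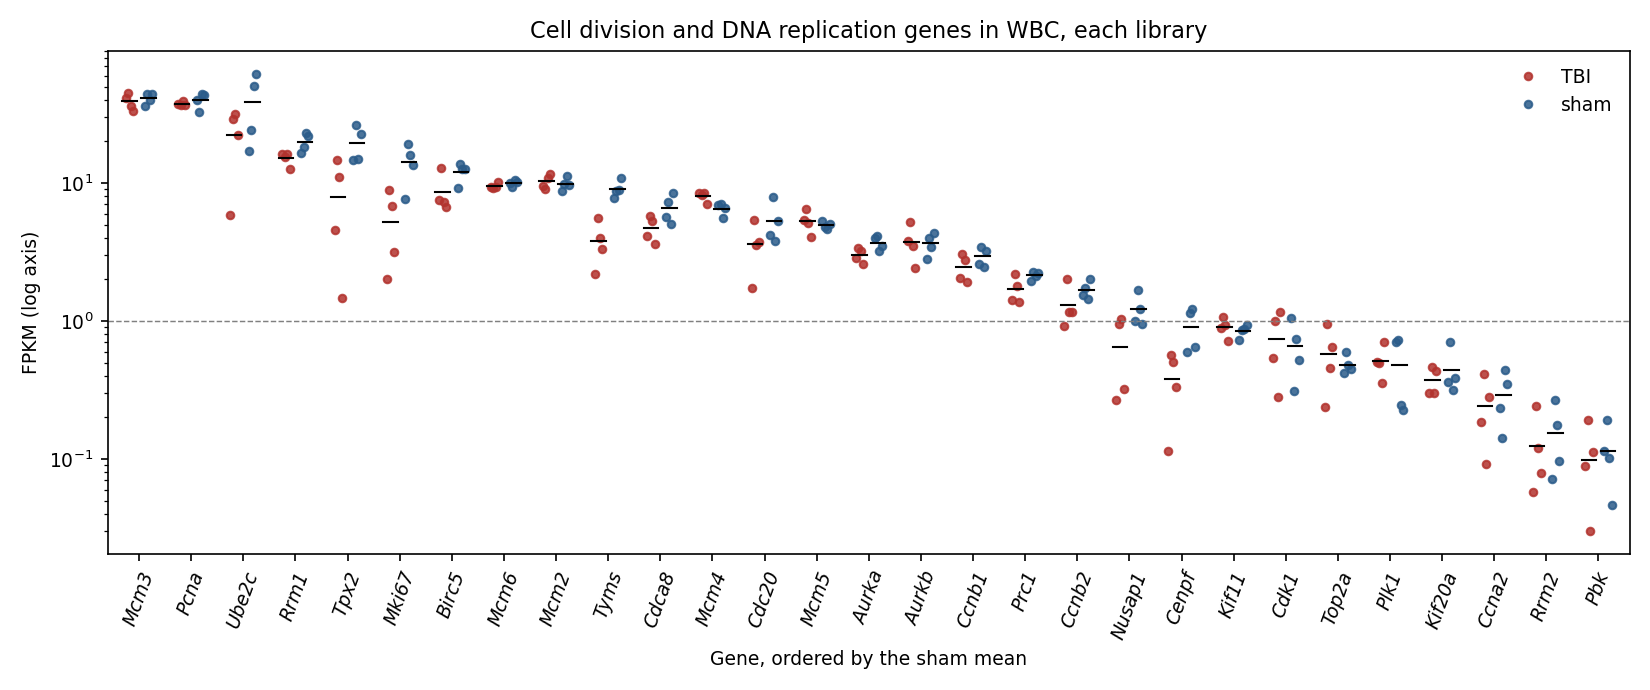
Each point is the FPKM of 1 WBC library on a log axis, TBI left of sham for each gene, with the group mean as a bar and the minimum of 1 FPKM as a dashed line; a Pbk value listed at 0 is drawn at the lower edge. Mcm3 and Pcna have the highest sham means, while Tyms, Rrm1 and Tpx2 show every TBI library below every sham library.

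The mitosis genes did not lie low in every injured rat's library. Taken as each library's median distance from the sham mean, the 11 tested mitosis genes stood at -0.61 in TBI 1, 0.031 in TBI 2, -0.27 in TBI 3 and -0.50 in TBI 4, against -0.26, 0.15, -0.16 and 0.13 in sham 1 to 4. TBI 1, TBI 3 and TBI 4 lay below all sham libraries, TBI 3 close to sham 1, and TBI 2 lay within the sham range. The 8 replication genes stayed closer together, at -0.072, -0.11, -0.050 and -0.18 in TBI 1 to 4, against -0.086, -0.037, 0.029 and 0.067 in sham 1 to 4. TBI 4 held the lowest value of 10 of the 19 genes and TBI 1 of 5, where these libraries were lowest in 14.3% and 22.5% of all tested rows. Sham 2 was highest in 7 of the 19, and in 15.6% of all rows.

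**Figure D3:**
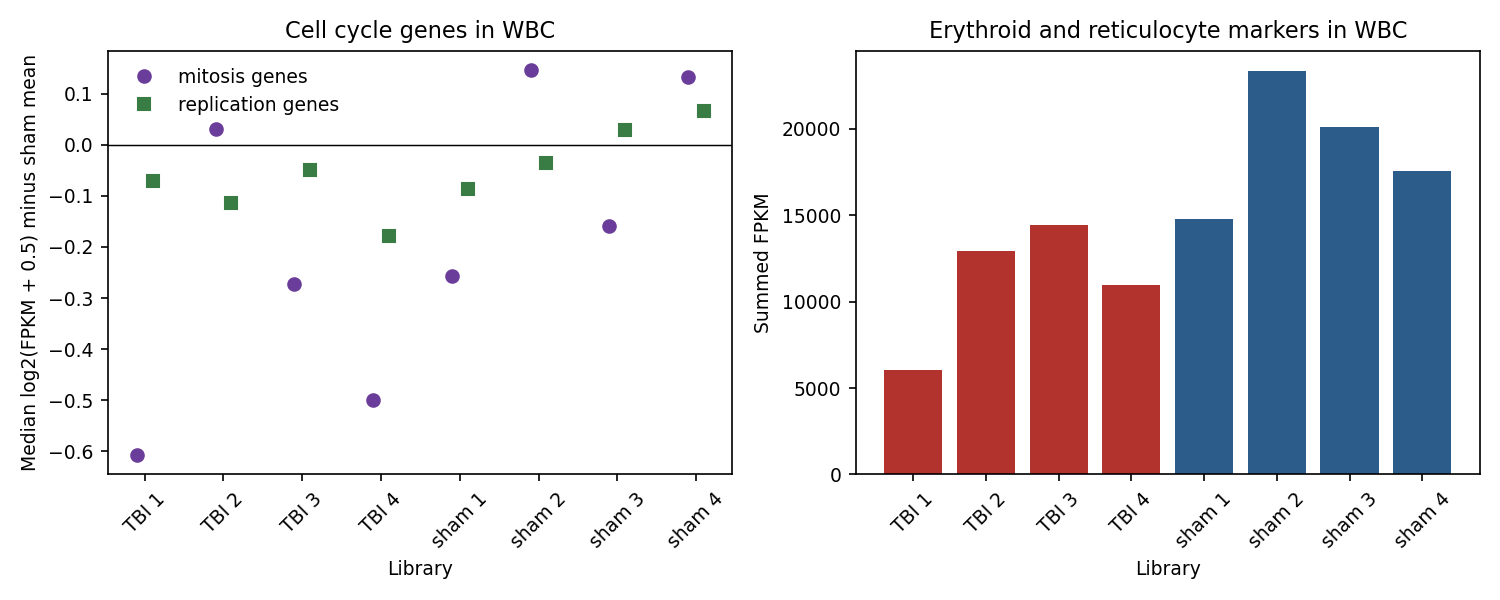
On the left, the median over mitosis genes (circles) and replication genes (squares) of log2(FPKM + 0.5) minus the sham mean is shown for each WBC library; on the right, bars give the summed FPKM of erythroid and reticulocyte markers in the same libraries. TBI 1 is lowest in mitosis genes (-0.61) and in erythroid markers (6028 FPKM), and TBI 2 lies at 0.031 and 12945 FPKM. TBI 3 lies at -0.27 and 14415 FPKM, and TBI 4 at -0.50 and 10971 FPKM. Sham 1 to 4 lie at -0.26, 0.15, -0.16 and 0.13 and at 14789, 23361, 20112 and 17565 FPKM. Platelet marker sums, not drawn, were also lowest in TBI 1, at 2410 FPKM. A relation between these values was not tested.

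Markers of some other blood cells also lay apart between the groups. Erythroid precursor and reticulocyte markers were lower in 14 of 14 tested, with a median of -1.01, and summed to 6028, 12945, 14415 and 10971 FPKM in TBI 1 to 4, against 14789, 23361, 20112 and 17565 FPKM in sham 1 to 4. The erythroid sums did not overlap, and no marker of that list was at 0 in all libraries. Alas2 was the largest part of these sums. It averaged 6080 ± 2045 FPKM in TBI and 9690 ± 2120 FPKM in sham libraries, with overlap (limma adjusted p = 0.370). Of platelet and megakaryocyte markers 7 of 7 were lower, with a median of -0.91 and sums of 2410 to 7182 FPKM in TBI and 7706 to 10483 FPKM in sham libraries. Cytotoxic and natural killer markers were higher in 8 of 8 (median 0.44, sums 298 to 481 FPKM in TBI and 263 to 331 FPKM in sham libraries). T cell markers were higher in 7 of 9, B cell markers lower in 7 of 7, neutrophil markers lower in 5 of 7 and monocyte markers lower in 4 of 7, with overlapping sums in each, from 503 to 932 FPKM in TBI and 785 to 1023 FPKM in sham libraries for B cells to 375 to 1249 and 672 to 1086 FPKM for neutrophils. Of brain lists, few genes were tested in blood: microglia markers were lower in 4 of 6, astrocyte markers in 1 of 3, endothelial markers in 3 of 3, pyramidal markers in 0 of 2 and choroid plexus markers in 1 of 2, and no precursor or progenitor marker was tested. No gene of these lists passed (limma). The part of any of them in the values of the cell division genes was not tested, and fewer cells of a type cannot be told apart from less RNA per cell.

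Other cell cycle genes of the blood were read from lists chosen by function, and none of them passed (limma adjusted p of 0.127 or more). Kinetochore and spindle genes were lower in 11 of 17 tested, with a median of -0.21. In that list the mitotic motor Kif18a averaged 0.891 ± 0.382 FPKM in TBI and 2.47 ± 0.432 FPKM in sham libraries (log2 difference -1.12 ± 0.22 SE, limma adjusted p = 0.127), and the centromere gene Cenpk averaged 2.62 ± 0.848 FPKM in TBI and 5.85 ± 1.52 FPKM in sham libraries (log2 difference -1.04 ± 0.23 SE, limma adjusted p = 0.127). Spag5, which codes for a spindle protein, averaged 4.92 ± 2.32 FPKM in TBI and 10.9 ± 4.61 FPKM in sham libraries (log2 difference -1.09 ± 0.37 SE, limma adjusted p = 0.165). Kif18a and Cenpk showed no overlap between the groups. Kif18a, below 1 FPKM on average in TBI, reached the minimum only through its sham libraries. So did Hmmr of that list, at 0.951 FPKM in TBI and 1.34 FPKM in sham libraries. Both are among the 11 lower genes.

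Nucleotide synthesis genes were lower in 7 of 11, with a median of -0.040. Tk1, the thymidine kinase that salvages thymidine in S phase, averaged 82.5 ± 21.8 FPKM in TBI and 153 ± 44.6 FPKM in sham libraries (log2 difference -0.88 ± 0.26 SE, limma adjusted p = 0.146). Genes of the first gap phase and of E2F and RB were lower in 7 of 13, with a median of -0.049. Mybl2, which joins the MuvB complex at promoters of mitosis genes, averaged 1.15 ± 0.170 FPKM in TBI and 2.48 ± 0.456 FPKM in sham libraries (log2 difference -0.85 ± 0.15 SE, limma adjusted p = 0.127), without overlap. Among the D cyclins, which open the cycle, Ccnd3 averaged 95.7 ± 7.22 FPKM in TBI and 122 ± 9.45 FPKM in sham libraries (log2 difference -0.35 ± 0.091 SE, limma adjusted p = 0.135) and Ccnd2 averaged 11.8 ± 1.55 FPKM in TBI and 9.46 ± 0.586 FPKM in sham libraries (log2 difference 0.30 ± 0.10 SE, limma adjusted p = 0.161), with opposite signs and no overlap in either.

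Condensin and cohesin genes were lower in 7 of 12, with a median of -0.033. Pttg1, securin, the inhibitor of the protease that cuts cohesin, averaged 63.9 ± 20.3 FPKM in TBI and 134 ± 48.6 FPKM in sham libraries (log2 difference -1.05 ± 0.29 SE, limma adjusted p = 0.140), without overlap. Ncapd3 of that list was higher in TBI, at 3.55 ± 0.483 FPKM against 2.64 ± 0.400 FPKM in sham libraries. The Ncapd3 log2 difference was 0.37 ± 0.14 SE (limma adjusted p = 0.187), with overlap. The CDK inhibitors were lower in 3 of 4, with a median of -0.55, and Cdkn2c, which blocks the D cyclin kinases, averaged 2.63 ± 0.862 FPKM in TBI and 4.65 ± 0.786 FPKM in sham libraries (log2 difference -0.76 ± 0.23 SE, limma adjusted p = 0.149). The lists of replication had medians nearer 0 than the CDK inhibitors, but not nearer than condensin and cohesin. Origin licensing and firing genes were higher in 8 of 12, with a median of 0.067, and polymerase and fork genes lower in 12 of 19, with a median of -0.035. In them Orc2, of the origin recognition complex, averaged 17.6 ± 1.26 FPKM in TBI and 14.6 ± 1.29 FPKM in sham libraries (log2 difference 0.27 ± 0.087 SE, limma adjusted p = 0.159), and Pole2, a subunit of polymerase epsilon, averaged 3.42 ± 0.565 FPKM in TBI and 2.45 ± 0.378 FPKM in sham libraries (log2 difference 0.41 ± 0.15 SE, limma adjusted p = 0.181), both with all TBI libraries above all sham libraries. Prim2 of the polymerase and fork list was lower in TBI, at 3.94 ± 0.162 FPKM against 4.57 ± 0.367 FPKM in sham libraries. The Prim2 log2 difference was -0.19 ± 0.088 SE (limma adjusted p = 0.264), with all TBI libraries below all sham libraries.

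In CA1 the same comparison was made. The 12 genes tested gave no call (limma adjusted p = 0.891 to 0.988), in a tissue where 0.00683% of 14637 rows passed. They were lower in 6 and higher in 6, with a median of -0.0015, against -0.0090 over all rows and 53.3% of rows lower. Of 5 mitosis genes 0 were lower, with a median of 0.081, and of 7 replication genes 6 were lower, with a median of -0.043. This split depends on the minimum. Cdca8 averaged 1.10 FPKM in TBI and 0.974 FPKM in sham libraries and passed it. Aurkb averaged 0.663 and 1.11 FPKM and did not. Without the minimum 3 of 4 mitotic CDK and cyclin genes and 3 of 4 mitotic kinase genes were lower. So were 2 of 2 partners of the anaphase-promoting complex, 3 of 5 spindle genes and 2 of 5 chromosome and passenger complex genes. None of the 12 was at an unadjusted p under 0.05, where limma gave 2.54% of all rows higher and 2.6% lower. The log2 differences stayed between -0.15 for Mcm2 and 0.13 for Ccnb1, with standard errors of 0.061 to 0.18, and the groups overlapped in all 12, where 1.6% of all rows had TBI below sham without overlap. At an unadjusted p under 0.05 in either direction were 5.14% of all rows. The other 18 genes with a row averaged under 1 FPKM.

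The 5 genes with the highest means in CA1 were replication genes. Pcna stood at 25.3, 30.0, 27.3 and 29.1 FPKM in TBI libraries 1 to 4, against 28.6, 26.5, 27.0 and 30.4 FPKM in sham libraries 1 to 4. The Pcna log2 difference was -0.012 ± 0.071 SE (limma adjusted p = 0.985). Rrm1 stood at 8.08, 8.28, 8.21 and 8.34 FPKM in TBI libraries 1 to 4, against 7.46, 8.56, 8.65 and 8.05 FPKM in sham libraries 1 to 4. The Rrm1 log2 difference was 0.0095 ± 0.061 SE (limma adjusted p = 0.987). The helicase subunit Mcm7 stood at 5.74, 6.37, 6.28 and 7.07 FPKM in TBI libraries 1 to 4, against 6.69, 6.10, 5.85 and 7.07 FPKM in sham libraries 1 to 4. The Mcm7 log2 difference was -0.013 ± 0.084 SE (limma adjusted p = 0.987). In these 3 genes the groups overlapped. Tyms, whose blood values separated the groups, stood in CA1 at 4.66, 4.70, 5.03 and 3.85 FPKM in TBI libraries 1 to 4, against 4.23, 5.80, 4.38 and 4.50 FPKM in sham libraries 1 to 4. The Tyms log2 difference was -0.043 ± 0.11 SE (limma adjusted p = 0.963), and the sign of Pcna, Rrm1, Mcm7, Tyms and Prc1 depended on the library left out. Mcm4 stood at 3.35, 3.57, 4.42 and 4.03 FPKM in TBI libraries 1 to 4, against 3.98, 4.34, 4.67 and 4.19 FPKM in sham libraries 1 to 4. The Mcm4 log2 difference was -0.15 ± 0.094 SE (limma adjusted p = 0.891), with TBI 1 and 2 below all sham libraries. Mcm6 stood at 1.53, 1.94, 1.71 and 1.81 FPKM in TBI libraries 1 to 4, against 2.03, 1.64, 2.12 and 1.64 FPKM in sham libraries 1 to 4. The Mcm6 log2 difference was -0.065 ± 0.11 SE (limma adjusted p = 0.935), with overlap. Mcm2 stood at 1.02, 0.994, 1.19 and 1.25 FPKM in TBI libraries 1 to 4, against 1.48, 0.973, 1.42 and 1.34 FPKM in sham libraries 1 to 4. The Mcm2 log2 difference was -0.15 ± 0.13 SE (limma adjusted p = 0.891), where sham 2 was lowest. Mcm5 stood at 0.511, 0.525, 0.483 and 0.645 FPKM in TBI libraries 1 to 4, against 0.782, 0.556, 0.357 and 0.521 FPKM in sham libraries 1 to 4. The Mcm5 log2 difference was -0.0055 ± 0.12 SE (limma adjusted p = 0.998 without the minimum), and Mcm3 averaged 0.473 ± 0.0725 FPKM in TBI and 0.630 ± 0.189 FPKM in sham libraries, both under the minimum.

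Mitosis genes were low in CA1. Birc5 stood at 1.65, 2.35, 1.75 and 2.46 FPKM in TBI libraries 1 to 4, against 1.74, 1.84, 1.89 and 2.10 FPKM in sham libraries 1 to 4. The Birc5 log2 difference was 0.081 ± 0.13 SE (limma adjusted p = 0.931), and TBI 2 and TBI 4 were highest. Cdca8 stood at 1.20, 1.34, 0.898 and 0.947 FPKM in TBI libraries 1 to 4, against 1.31, 0.845, 1.03 and 0.705 FPKM in sham libraries 1 to 4. The Cdca8 log2 difference was 0.12 ± 0.16 SE (limma adjusted p = 0.920). Ccnb1 stood at 0.984, 1.28, 1.01 and 1.28 FPKM in TBI libraries 1 to 4, against 0.774, 1.07, 1.26 and 0.906 FPKM in sham libraries 1 to 4. The Ccnb1 log2 difference was 0.13 ± 0.14 SE (limma adjusted p = 0.900), with wide overlap in both of these genes. Prc1 stood at 1.29, 1.34, 1.01 and 1.63 FPKM in TBI libraries 1 to 4, against 0.985, 1.46, 1.67 and 0.885 FPKM in sham libraries 1 to 4. The Prc1 log2 difference was 0.068 ± 0.18 SE (limma adjusted p = 0.961), and Aurka averaged 1.48 ± 0.194 FPKM in TBI and 1.46 ± 0.156 FPKM in sham libraries (log2 difference 0.016 ± 0.11 SE, limma adjusted p = 0.988). Mki67 stood at 0.691, 0.583, 0.645 and 0.614 FPKM in TBI libraries 1 to 4, against 0.683, 0.755, 0.717 and 0.639 FPKM in sham libraries 1 to 4. The Mki67 log2 difference was -0.081 ± 0.073 SE (limma adjusted p = 0.904 without the minimum). Top2a stood at 0.330, 0.331, 0.428 and 0.395 FPKM in TBI libraries 1 to 4, against 0.401, 0.398, 0.378 and 0.365 FPKM in sham libraries 1 to 4. The Top2a log2 difference was -0.025 ± 0.063 SE (limma adjusted p = 0.962 without the minimum). Cdk1 stood at 0.678, 0.686, 0.585 and 0.360 FPKM in TBI libraries 1 to 4, against 0.710, 0.419, 0.618 and 0.568 FPKM in sham libraries 1 to 4. The Cdk1 log2 difference was -0.0066 ± 0.13 SE (limma adjusted p = 0.998 without the minimum). In these markers of cycling cells the groups overlapped, and no library of either group reached 1 FPKM.

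Without the minimum, 2 of the 30 genes had all TBI libraries below all sham libraries, which held for 1.55% of all rows. The reverse held for 0 of the 30 and for 1.38% of all rows. Rrm2 stood at 0.0846, 0.132, 0.127 and 0.140 FPKM in TBI libraries 1 to 4, against 0.169, 0.253, 0.169 and 0.191 FPKM in sham libraries 1 to 4. The Rrm2 log2 difference was -0.16 ± 0.058 SE (limma adjusted p = 0.887 without the minimum). Plk1, the polo-like kinase of mitotic entry, stood at 0.473, 0.463, 0.309 and 0.404 FPKM in TBI libraries 1 to 4, against 0.550, 0.522, 0.536 and 0.589 FPKM in sham libraries 1 to 4. The Plk1 log2 difference was -0.21 ± 0.079 SE (limma adjusted p = 0.887 without the minimum). At these levels a value rests on an unknown number of fragments. Aurkb stood at 0.271 FPKM in TBI 1 and at 0.701 to 1.45 FPKM in the other CA1 libraries, and averaged 0.663 ± 0.270 FPKM in TBI and 1.11 ± 0.305 FPKM in sham libraries (log2 difference -0.48 ± 0.21 SE, limma adjusted p = 0.887 without the minimum). Without the minimum 22 of 30 genes were lower in TBI, against 52.3% of all rows, the median of all 30 was -0.028, 2 were at an unadjusted p under 0.05 (limma), against 5.47% of all rows, and 0 passed, against 0.00436%.

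**Figure D4:**
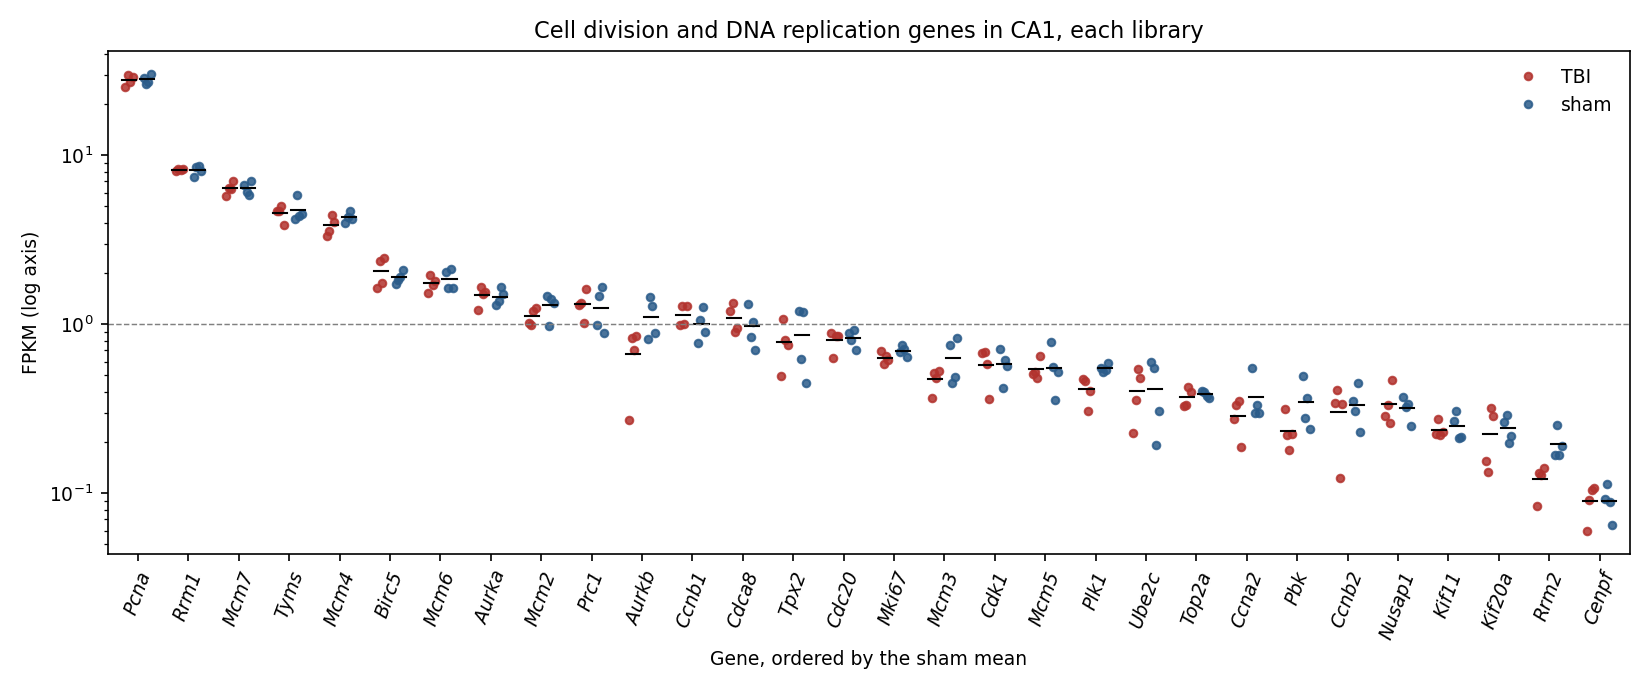
Each point is the FPKM of 1 CA1 library on a log axis, TBI left of sham for each gene, with the group mean as a bar and the minimum of 1 FPKM as a dashed line. Pcna (25.3 to 30.4 FPKM) stands apart at the top, and 18 of the 30 genes average below the line.

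Markers of cell types, among them types that can divide in the hippocampus, showed no call in CA1 either (limma). Microglia markers were higher in 5 of 9, with sums of 206 to 262 FPKM in TBI and 215 to 244 FPKM in sham libraries. Oligodendrocyte precursor markers were lower in 5 of 6, at 111 to 149.8 FPKM in TBI and 119 to 186 FPKM in sham libraries. Markers of progenitors and neuroblasts were higher in 4 of 6, at 86.2 to 98.7 FPKM in TBI and 83.7 to 105 FPKM in sham libraries. Sox2 was the largest part of that sum, averaging 55.5 FPKM in TBI and 56.8 FPKM in sham libraries. Of astrocyte markers 5 of 7 were lower, and of CA1 pyramidal markers 7 of 7 (median -0.19). Endothelial markers were lower in 7 of 8, with all TBI libraries below all sham libraries in 4, against 1.6% of all rows, and a median of -0.24, and the endothelial sums were 108 to 119 FPKM in TBI and 110.2 to 170.2 FPKM in sham libraries. The sums of each of these lists overlapped between the groups. Choroid plexus markers were higher in 5 of 6. Of blood lists, erythroid markers were lower in 4 of 7, T cell markers in 2 of 3, monocyte markers in 3 of 6, and the tested platelet and neutrophil markers in 0 of 1 each, while no B cell or cytotoxic marker was tested. The part of these cells in the values of the cell division genes was not tested.

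No gene of the other cell cycle lists passed in CA1 (limma adjusted p = 0.891 or more). Condensin and cohesin genes were lower in 10 of 11, with a median of -0.037, and the condensin subunit Smc2 averaged 5.16 ± 0.210 FPKM in TBI and 6.39 ± 0.817 FPKM in sham libraries (log2 difference -0.28 ± 0.094 SE, limma adjusted p = 0.891). Nucleotide synthesis genes were higher in 9 of 11, with a median of 0.054, and polymerase and fork genes in 10 of 17, with a median of 0.028. Lig1, the ligase that joins lagging strand pieces, averaged 2.78 ± 0.0734 FPKM in TBI and 2.99 ± 0.0748 FPKM in sham libraries (log2 difference -0.089 ± 0.065 SE, limma adjusted p = 0.891), with all TBI libraries below all sham libraries. Origin genes were lower in 7 of 11 (median -0.052), genes of the first gap phase in 8 of 11 (median -0.031), kinetochore and spindle genes in 5 of 12 (median 0.0092) and CDK inhibitors in 2 of 4 (median -0.047). Cdkn1a, which damaged cells use to stop the cycle, averaged 3.67 ± 0.241 FPKM in TBI and 4.15 ± 0.798 FPKM in sham libraries (log2 difference -0.14 ± 0.12 SE, limma adjusted p = 0.891).

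The difference between TBI and sham was then compared between the tissues, as the effect in WBC minus the effect in CA1. The interaction term was tested in 7570 genes that averaged at least 1 FPKM in both tissues, 11 of the 32 among them, and each table, normalized separately, kept its own mean. None of the 11 passed, where 0.41% of all genes did, and 5 were at an unadjusted p under 0.05, against 19.7% of all genes. That count was 3 without CA1 TBI 2, CA1 sham 2, WBC TBI 1, WBC TBI 4, WBC sham 2 or WBC sham 4. The difference of effects lay below 0 in 9 of 11, with a median of -0.35, against 51% of all genes and a median of -0.0060. For Tyms the effect was -1.21 in WBC and -0.043 in CA1, a difference of -1.17 ± 0.26 (SE, limma adjusted p = 0.0642). For Mcm4 the effects were 0.28 and -0.15, a difference of 0.43 ± 0.13 (SE, limma adjusted p = 0.107), and for Rrm1 -0.39 and 0.0095, a difference of -0.40 ± 0.14 (SE, limma adjusted p = 0.141). Cdca8 differed by -0.57 ± 0.24 (SE, limma adjusted p = 0.207) and Birc5 by -0.58 ± 0.25 (SE, limma adjusted p = 0.208). Tyms passed without WBC TBI 1 (adjusted p = 0.0399), WBC TBI 2 (0.00752) or WBC TBI 3 (0.0348) and with sample weights (0.0263), and Birc5 passed without WBC TBI 2 (0.0479), all in limma.

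**Figure D5:**
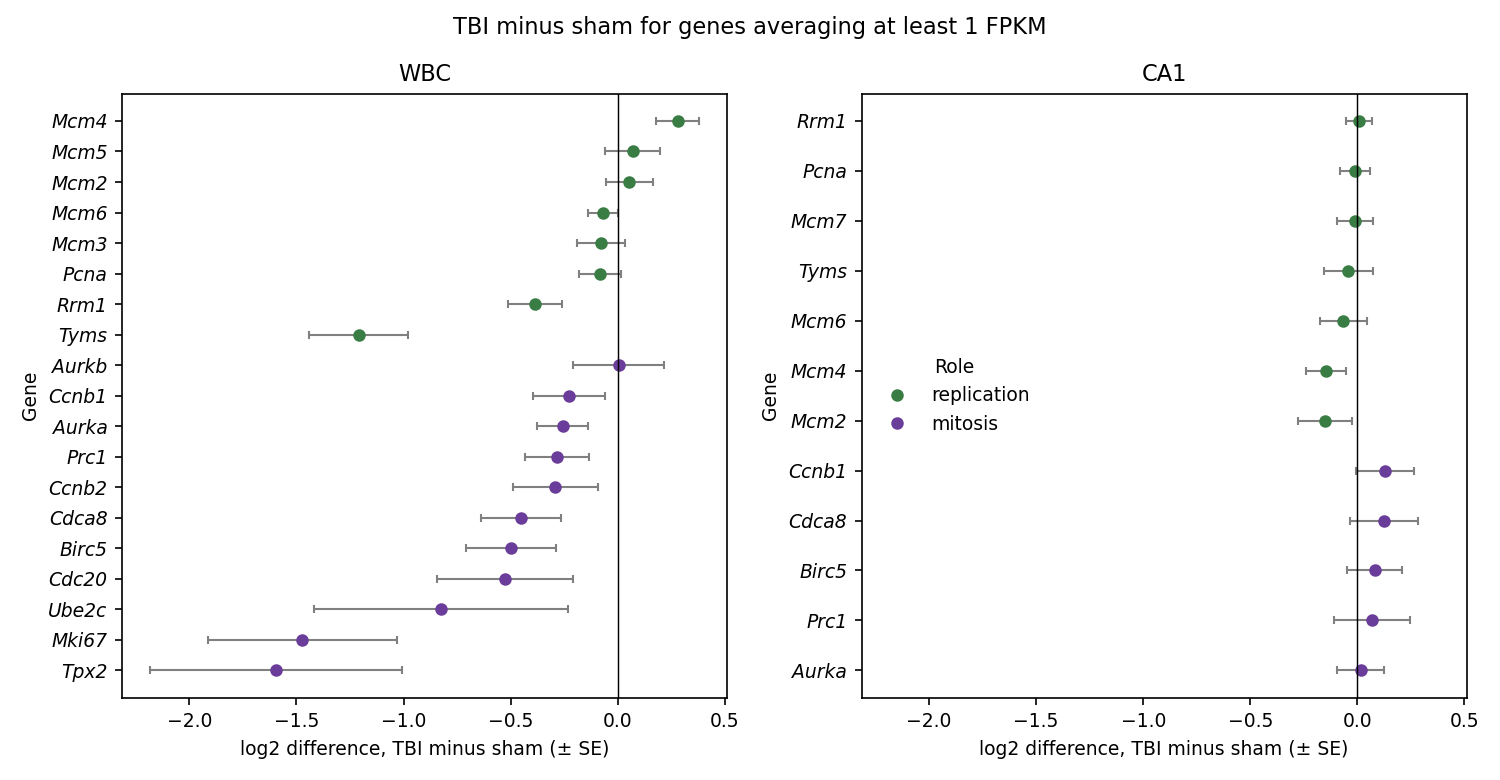
Points give the log2 difference, TBI minus sham, with its standard error for genes averaging at least 1 FPKM, in WBC on the left (19 genes) and CA1 on the right (12 genes), replication genes above mitosis genes. In WBC Tpx2 (-1.60), Mki67 (-1.47) and Tyms (-1.21) lie farthest from 0, and in CA1 all lie between -0.15 and 0.13.

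The order of levels differed between the tissues, which were normalized separately, so the following is a description without a test. In 19 of the 29 genes found in both tables every WBC library lay above every CA1 library, in 10 the libraries overlapped, and in 0 WBC lay below. The share over all shared genes was not taken, so whether this count is particular to these genes cannot be told. The 10 highest rows held 68.95% to 82.8% of the summed FPKM in CA1 libraries and 18.55% to 35.79% in WBC libraries. Sham means in WBC and CA1 were 38.3 and 0.413 FPKM for Ube2c, 41.1 and 0.630 FPKM for Mcm3, 19.6 and 0.860 FPKM for Tpx2 and 14.1 and 0.699 FPKM for Mki67. In some genes the sham mean was lower in WBC, as in Pbk at 0.114 and 0.345 FPKM and Ccna2 at 0.293 and 0.370 FPKM, with overlapping libraries. Top2a stood at 0.484 and 0.386 FPKM, Cdk1 at 0.656 and 0.578 FPKM and Rrm2 at 0.153 and 0.196 FPKM. Within blood, genes of mitosis did not share a level: Ube2c, Tpx2, Mki67 and Birc5 averaged 12.1 to 38.3 FPKM in sham libraries, while Cdk1, Top2a, Plk1, Kif20a and Ccna2 averaged 0.293 to 0.656 FPKM. The cause of that spread was not tested.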

How the data were processed

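RNA-seq libraries were made from poly-A selected RNA with random priming, per the labels' protocols. The submitters' processing notes name TopHat, TopHat2, Bowtie, Bowtie2, Cufflinks, Cuffdiff and the build rn5, without their roles; versions, annotation and library scaling are not known. The deposited values are FPKM with a status for each, in 1 table per tissue. Symbols are as deposited. No step of fragment spacing clear enough to give relative depth was found: among rows under 0.3 FPKM in all libraries, at most 22 of 1306 shared 1 ratio to sham 1. No counting interval is therefore given.

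Rows with a mean of at least 1 FPKM and every status OK entered limma 3.58.1 (trend, 2-sided, R 4.3.3) on log2(FPKM + 0.5), with Benjamini-Hochberg adjustment over 14637 CA1 rows, 13413 WBC rows or 7570 genes in both tissues. Genes below 1 FPKM are given from a fit without that minimum. The test was checked on simulated data, drawn independently for each row. Such data hold no shift shared by the genes of a library, and no outcome of the check is given. Values by library are given for genes fixed by name and for any further gene among the 8 smallest p of a tissue; from 7 pathway lists up to 3 genes with the smallest p are named, and 14 lists of cell type markers are summed. Cenpf, Mcm3, Aurkb, Nusap1, Plk1 and the shared Mcm7 row were chosen after their values were seen. The genes and lists were chosen with earlier results of these data known. Promoters came from the RefSeq table of GRCr8. The alternatives were pseudocounts of 0.1 and 1, no minimum or 5 FPKM, median-ratio and quantile scaling, no trend, sample weights, rows of every status, a replicate block, and leaving out each library. Python 3.11.15, pandas 2.3.3, numpy 2.4.6 and matplotlib 3.10.9 were used.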

Additional observations from a re-analysis of the deposited data

Results flagged for a closer look

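In 118 groups of 4 libraries, a library at the edge of its group was set against Dixon's critical value, which chance passes in about 1 group in 20, and 3 groups passed. In CA1 the S phase cyclin Ccna2 stood at 0.551 FPKM in sham 1, far above the other sham libraries. Cdc20, the activator of the anaphase-promoting complex, stood at 0.632 FPKM in CA1 TBI 2, below the other TBI libraries. Mcm4 stood at 7.05 FPKM in WBC TBI 4, below the other WBC TBI libraries.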

How the results depend on the processing

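No gene of the 19 in WBC or of the 12 in CA1 passed under any alternative run. In WBC the genes at an unadjusted p under 0.05 numbered 3 to 11 when 1 library was left out. The median log2 difference of all tested genes was then -0.39 to -0.21, and without the minimum of 1 FPKM the median of the 29 genes was -0.099. In CA1 2 genes were at that level without the minimum, against 0 with it. For the difference between tissues, 1 gene passed with sample weights and 0 to 2 when 1 library was left out; those at an unadjusted p under 0.05 numbered 3 to 6 when 1 library was left out, 9 without the minimum, where the median was -0.069, and 1 of 2 tested with a minimum of 5 FPKM.

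The sign of small differences changed. With sample weights the CA1 values were 0.013 for Pcna, 0.035 for Mcm7, -0.026 for Rrm1 and -0.11 for Prc1, and quantile normalization gave 0.050 for Pcna in WBC. Leaving out 1 library gave -0.048 to 0.034 for Pcna, -0.061 to 0.032 for Mcm7, -0.031 to 0.036 for Rrm1, -0.088 to 0.050 for Tyms and -0.037 to 0.18 for Prc1 in CA1, and -0.0070 to 0.12 for Mcm2 and -0.025 to 0.18 for Mcm5 in WBC. The cause was not tested.

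With equal numbers as a replicate block, 8 WBC genes and 0 CA1 genes were at an unadjusted p under 0.05, against 7 and 0, and 4 against 5 for the difference between tissues; no call changed. Of the 4 TBI libraries of a tissue, 2 in CA1 and 1 in WBC correlated best with the sham library of equal number. Deviations of equal numbers correlated at 0.023 to 0.24 within CA1 and -0.0082 to 0.147 within WBC, ranges that cannot decide whether samples were paired. Between CA1 and WBC they correlated at 0.0476 to 0.202, and in both groups each of the 4 libraries correlated best with its own number, a hint from the data and not from the design. Depth is unknown, so values below 1 FPKM carry an unknown counting error.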
